A study of Mus musculus with 10 samples.

Results

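Transcripts of 10 genes of the BCL2 family were followed in mouse sarcomas of 2 models: the anti-apoptotic genes Bcl2, Bcl2l1, Bcl2l2 and Mcl1, the effectors Bak1 and Bok, and the BH3-only genes Bcl2l11, Bad, Bid and Bmf. The genes were taken by symbol from a table of 56750 features, and all 10 were among the 24743 that passed the filter on low counts. The dFLEx group was 3 tumors (170019, 170024 and 170025) of the genotype dFLEx CDS +/-, a CIC::DUX4 transgene that a CAG promoter expresses once Cre and FLPE have both acted, here after electroporation of both plasmids into hind limb muscle. The KP group was 2 tumors (3800 and 3802) of mice of the KP genotype, which includes p53fl/fl. No drug treatment is given for either group, the dFLEx mice were adults when the plasmids were given, an age for the KP mice is not given in the sources used here, and no allele is listed for both groups, so effects of the fusion and of the KP alleles cannot be told apart. RNA of each tumor was split into duplicates R1 and R2 for sequencing, and the 9 libraries analysed here were summed by tumor, 3802 having 1 library.

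BCL2-family proteins set the threshold for the mitochondrial route of apoptosis. BH3-only proteins sense damage or loss of growth signals and bind anti-apoptotic members through a short helix, the BH3 domain, which frees or activates the effectors to form pores in the outer mitochondrial membrane. Cytochrome c released through the pores assembles the apoptosome with Apaf1 and starts the caspases, and in sarcomas and other tumors an excess of anti-apoptotic members is a known way to tolerate oncogene stress.

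The coding bases of the BH3 core show what the members share and where they vary. The core was searched in the annotated coding sequence (GENCODE M39) as a leucine, any 3 residues, then glycine, alanine or serine, then aspartate, and it occurred 1 time in each of 9 members. In Bcl2l2 it was found only with methionine in the first place, a pattern tried after the first search. The cores of Bcl2, Bcl2l1 and Bid are shown because these transcripts stood furthest apart between the models, and those of Bcl2l2 and Bmf for their different residues; capitals mark the 18 core bases.
Bcl2: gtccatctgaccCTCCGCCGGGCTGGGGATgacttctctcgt
Bcl2l1: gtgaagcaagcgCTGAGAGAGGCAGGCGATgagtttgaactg
Bcl2l2: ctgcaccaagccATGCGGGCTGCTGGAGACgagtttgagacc
Bid: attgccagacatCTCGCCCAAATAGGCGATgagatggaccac
Bmf: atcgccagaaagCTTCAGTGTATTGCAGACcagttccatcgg
In GRCm39 the core of Bcl2 lay in exon 1 at chr1:106640314-106640331 (minus strand), that of Bcl2l1 in exon 2 at chr2:152671626-152671643 (minus), and that of Bcl2l2 in exon 3 at chr14:55121974-55121991 (plus). The core of Bid lay in exon 4 at chr6:120874259-120874276 (minus) and that of Bmf in exon 4 at chr2:118375590-118375607 (minus). The residue before the aspartate is glycine in Bcl2, Bcl2l1, Bcl2l2 and Bid and alanine in Bmf. Among the cores not shown, that of Bad has serine there and the others have glycine. Counts per gene pool all isoforms, including those that lack this core.

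CIC, the DNA-binding partner in the fusion, recognises octamers, and the 4 forms TGAATGAA, TGAATGGA, TCAATGAA and TCAATGGA were searched on both strands of RefSeq promoters (250 bases before to 50 after a start). Of the 10 members, 1 (Bcl2) had a match, in 1 of 16 member promoters, beside 3.84% of 32851 promoters in all. The match is printed with 20 bases on each side, the octamer in capitals, because Bcl2 was also the member furthest above KP.
Bcl2 promoter: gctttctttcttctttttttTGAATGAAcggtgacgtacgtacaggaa
This stretch lies at chr1:106642111-106642158 on the minus strand of GRCm39, outside the exons of Bcl2, with the octamer 118 bases upstream of the RefSeq start from which that promoter was taken. Binding of the fusion was not measured here, and the match is a description of the letters only.

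The transgene feature was counted at 105, 202 and 423 CPM (counts relative to a common library total, scaled by TMM) in 170019, 170024 and 170025, at 0 counts in 3800 and at 0.244 CPM (6 counts) in 3802. Trp53 was counted at 77.5 to 104 CPM in dFLEx and at 162 and 82.6 CPM in 3800 and 3802; reads from exons outside the floxed part are included, so the gene total does not check the deletion. Library totals were 20503474 to 46302223 counts. The lowest count of any member in any library was 78 (Bid in 170019). Counting error was not set against the spread between tumors. It need not be the smaller where tumors lay close. Such cases were Bcl2 in KP (SD 0.0704 CPM, from 2040 and 672 counts) and Bcl2l1 in dFLEx (SD 0.865 CPM). The library of 3802 had the lowest total and the most features with a count (36904, beside 24280 to 31768 in the others). A background was estimated from 1546 olfactory and vomeronasal receptor genes. In 3802 it was 0.128 CPM per kilobase, below every member there (0.820 or more), and it was 0.0203 or less in the other tumors. The duplicates differed by a median ratio of 1.06 over 40 pairs of member values, and 2 pairs exceeded 1.5, Bid and Bmf in 170019.

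Tumors also differed along gene length. In the 25% of genes with the most exonic bases, the median log2 deviation from the mean of the 5 tumors was -0.61 in 170019, -0.17 in 170024, 0.65 in 170025, 0.64 in 3800 and -0.53 in 3802. In the 25% with the fewest it was 0.44, 0.17, -0.34, -0.36 and -0.06 in the same order. High and low tumors were thus found in both models, with 170025 and 3800 on one side and 170019 and 3802 on the other. Each member is therefore also given from a fit with the trend of each tumor over GC content and length removed, a setting chosen after seeing the data.

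None of the 10 members passed an adjusted p of 0.05 in edgeR's quasi-likelihood test, in which 0.182% of the 24743 tested genes did. None had an unadjusted p under 0.05, beside 10.6% of all tested genes. DESeq2 on tumor sums called 0 members with 1 at an unadjusted p under 0.05, beside 8.37% of its 44379 genes, and limma-voom with the tumor as random effect called 0 with 3, beside 13.8% of 19538 genes. The log2 fold changes of dFLEx against KP ran from -1.53 to 1.29, 5 above and 5 below 0, with a median of -0.06 beside -0.18 over all tested genes. Standard errors of the members were 0.51 to 0.83 on the log2 scale, and their 95% intervals reached from 1.18 to 1.93 to each side of the estimate.

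**Figure D1:**
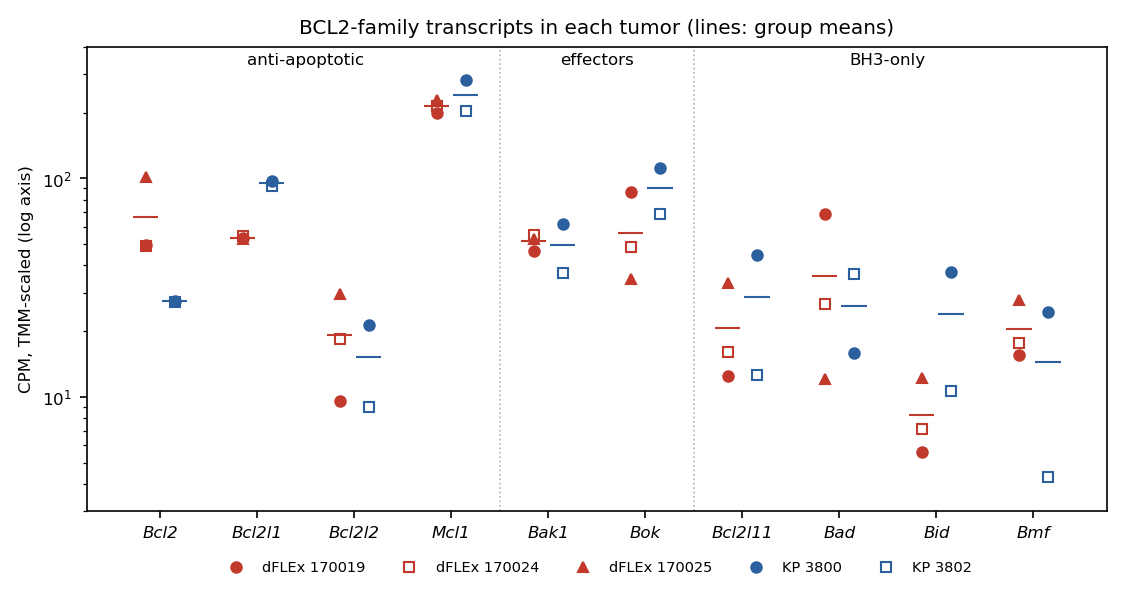
Level of each member in each tumor in TMM-scaled CPM on a log axis, with dFLEx tumors in red, KP tumors in blue and short lines at the group means. Only Bcl2 (all dFLEx tumors above) and Bcl2l1 (all dFLEx tumors below) show no overlap, while Bad runs from 12.1 to 68.7 CPM within dFLEx.

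Among the anti-apoptotic genes, Bcl2, which holds BH3-only proteins and effectors at the mitochondrial and endoplasmic reticulum membranes, stood higher in dFLEx. Bcl2 (chr1:106465908-106642004) was at 49.7, 49.2 and 101 CPM in 170019, 170024 and 170025 and at 27.4 and 27.3 CPM in 3800 and 3802. Every dFLEx tumor was above both KP tumors, and 170025 was 2.06-fold above the lowest dFLEx tumor. The means were 66.7 ± 29.9 CPM (SD, n = 3) and 27.4 ± 0.0704 CPM (SD, n = 2), and the log2 fold change was 1.29 (SE 0.62, 95% interval -0.14 to 2.72, edgeR adjusted p = 0.553). It was 0.99 to 1.19 under the other 3 scalings, 1.27 with the GC and length trend removed (SE 0.48, adjusted p = 0.304) and 0.84 without 170025. The pooled endothelial markers (8 genes) were also higher in dFLEx, at 450 to 627 CPM against 169 and 175 CPM, and none of the 8 was at 0; in bulk RNA, more cells of a type and more RNA per cell cannot be told apart, and the part of these cells in Bcl2 was not tested.

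Bcl2l1 (chr2:152622588-152673648), whose long isoform BCL-XL is the anti-apoptotic one and whose short isoform promotes death, varied little between tumors of a model. It was at 53.5, 54.4 and 52.7 CPM in the dFLEx tumors and at 97.3 and 92.8 CPM in the KP tumors. Every dFLEx tumor was below both KP tumors, and within a group the highest tumor was 1.03-fold (dFLEx) and 1.05-fold (KP) above the lowest. The means were 53.5 ± 0.865 and 95.1 ± 3.16 CPM, 1.78-fold higher in KP. The log2 fold change was -0.83 (SE 0.51, 95% interval -2.00 to 0.35, edgeR adjusted p = 0.716); the estimate of spread in this test is shared in part between genes. It was -1.12 to -0.91 under the other 3 scalings and -1.22 with the GC and length trend removed (SE 0.43, adjusted p = 0.271). The counts do not separate the 2 isoforms. The pooled macrophage markers (8 genes, none at 0) were lower in dFLEx, at 680 to 867 CPM against 1524 and 4558 CPM, and their part in Bcl2l1 was not tested.

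These were the only members whose groups did not overlap: 1 of 10 was above in every dFLEx tumor, beside 13.7% of all tested genes, and 1 of 10 was below, beside 11.7%. Under library totals Mcl1, Bok and Bid were below as well, 4 of 10 beside 15.5% of all tested genes. Under the upper quartile Bid was, 2 of 10 beside 13.8%. Under DESeq2 size factors Mcl1 and Bid were, 3 of 10 beside 12.8%. Above in every dFLEx tumor was 1 of 10 under each of these, beside 10.0%, 11.4% and 12.8% in the same order. Bcl2 and Bcl2l1 kept their sides under all 4 scalings. Over all tested genes the median shift of the log2 fold change from TMM was -0.301 with library totals and -0.212 with the upper quartile. Under these 4 scalings Bak1 alone changed sign, from 0.06 with TMM to between -0.21 and -0.00 with the others.

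Mcl1 (chr3:95566099-95570487), a short-lived protein that restrains Bak1 and the BH3-only proteins, was the most abundant member per kilobase in all 5 tumors. It was at 200, 214 and 228 CPM in dFLEx and at 282 and 203 CPM in KP. The groups overlapped, and the log2 fold change was -0.18 (SE 0.51, edgeR adjusted p = 0.961); without 3800 it was 0.24. Bcl2l2, which encodes BCL-W, was at 9.55, 18.5 and 29.7 CPM in dFLEx and at 21.4 and 9.02 CPM in KP. The tumors of each group spread over most of the same range, and the log2 fold change was 0.34 (SE 0.72, edgeR adjusted p = 0.946), turning to -0.13 without 3802 and to -0.12 without 170025.

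The effectors were Bak1, which forms pores at the outer mitochondrial membrane, and Bok, a relative found at the endoplasmic reticulum that acts largely without restraint by Bcl2 proteins. Bak1 (chr17:27238784-27247983) was at 46.6, 55.1 and 52.9 CPM in dFLEx and at 62.0 and 37.1 CPM in KP. The dFLEx tumors lay between the 2 KP tumors, and the log2 fold change of 0.06 had a 95% interval of -1.22 to 1.33 (edgeR adjusted p = 0.988). Bok (chr1:93613382-93623486) was at 86.6, 48.3 and 34.5 CPM in dFLEx and at 112 and 68.7 CPM in KP. Only 170019 reached into the KP range. The log2 fold change was -0.68 (SE 0.62, edgeR adjusted p = 0.859). With the GC and length trend removed it was -1.85 (SE 0.52, 95% interval -3.08 to -0.63, adjusted p = 0.172), the largest move of any member; Bok has the highest GC content of the 10 (61.8%) and the fewest exonic bases (1840).

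The BH3-only genes differed by up to 5.68-fold between dFLEx tumors (Bad) and up to 5.69-fold between KP tumors (Bmf). Bid (chr6:120868891-120893814), which caspase-8 cleaves to carry a death receptor signal to the mitochondrion, was at 5.57, 7.11 and 12.2 CPM in dFLEx and at 37.3 and 10.6 CPM in KP. 170025 was above 3802, so the groups overlapped at a single pair of tumors. The log2 fold change was -1.53 (SE 0.72, 95% interval -3.21 to 0.14, edgeR adjusted p = 0.538), -1.70 with the GC and length trend removed (SE 0.54, adjusted p = 0.219) and -0.19 without 3800, the tumor on which it mostly rested. With 1 KP tumor left, that tumor was assumed to vary like the others.

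Bcl2l11, which encodes BIM, a binder of all anti-apoptotic members, was at 12.5, 16.1 and 33.2 CPM in dFLEx and at 44.8 and 12.6 CPM in KP. Bmf, a sensor of lost cell attachment, was at 15.6, 17.6 and 27.9 CPM in dFLEx and at 24.5 and 4.31 CPM in KP. Both were highest in 170025 and 3800 and lowest in 170019 and 3802, which is also how long genes were divided. Bmf, with 5253 exonic bases, was not itself among the 25% of genes with the most. The log2 fold changes were -0.48 (SE 0.75, edgeR adjusted p = 0.923) for Bcl2l11 and 0.50 (SE 0.81, adjusted p = 0.927) for Bmf. Their signs turned without 3800 (0.88 for Bcl2l11) and without 3802 (-0.25 for Bmf). With the GC and length trend removed, Bcl2l11 was at -0.36 and Bmf at 0.37. Bad, which 14-3-3 proteins hold in the cytosol while growth signals persist, was at 68.7, 26.5 and 12.1 CPM in dFLEx and at 15.9 and 36.4 CPM in KP. Like short genes, it was higher in 170019, 170024 and 3802 than in 170025 and 3800. The log2 fold change was 0.45 (SE 0.83, edgeR adjusted p = 0.937), -0.06 with the GC and length trend removed and -0.50 without 170019.

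**Figure D2:**
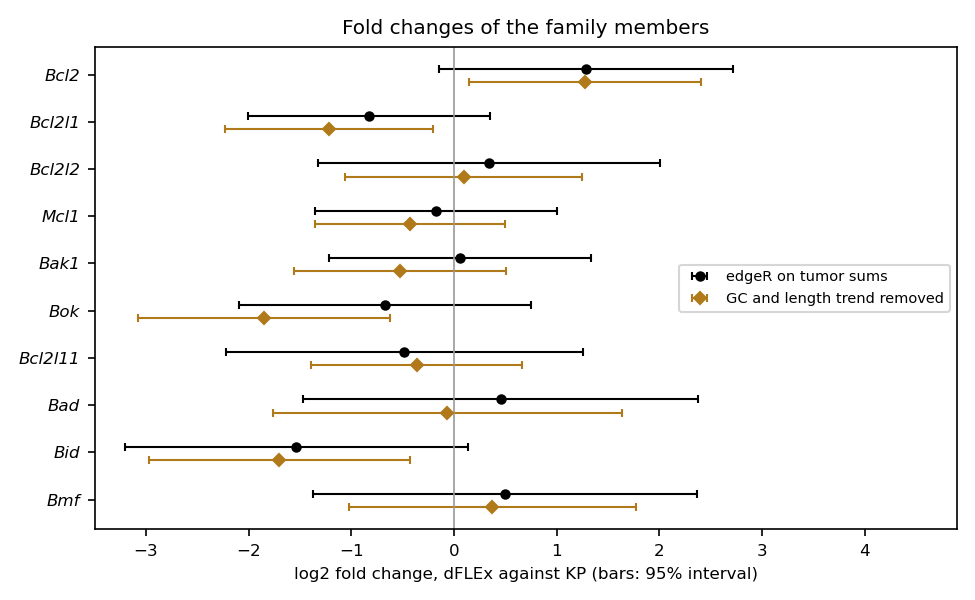
Log2 fold change of each member, dFLEx against KP, with its 95% interval, from edgeR on tumor sums (black circles) and with the GC and length trend of each tumor removed (ochre diamonds). The black intervals of all 10 members include 0, and those of Bcl2, Bcl2l1, Bok and Bid with the trend removed do not, with adjusted p from 0.172 to 0.304.

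With the trend removed, 4 of the 10 members (Bcl2, Bcl2l1, Bok and Bid) had an unadjusted p under 0.05, beside 13.3% of all tested genes, and none passed after adjustment. When the 9 libraries were entered as independent samples, 3 of 10 passed, beside 17.1% of the 19538 genes tested: Bcl2 (adjusted p = 0.0269), Bcl2l1 (adjusted p = 0.0165) and Bid (adjusted p = 0.0111). Duplicates of a tumor share its biology, so those calls measure the spread between libraries and not between tumors. With the duplicate number as a block, Bcl2l1 (adjusted p = 0.0422) and Bid (adjusted p = 0.0234) passed, 2 of 10 beside 12.7% of all genes tested, and Bcl2 (adjusted p = 0.0504) did not.

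To compare genes with each other, levels were divided by exonic length and are given as CPM per kilobase. In dFLEx the order of the means was Mcl1 (62.6), Bok (30.7), Bak1 (21.4), Bad (13.98), Bcl2l1 (11.7), Bcl2 (7.28), Bcl2l2 (4.32), Bmf (3.87), Bcl2l11 (2.56) and Bid (2.33). In KP it was Mcl1 (70.9), Bok (49.0), Bcl2l1 (20.7), Bak1 (20.6), Bad (10.2), Bid (6.75), Bcl2l11 (3.58), Bcl2l2 (3.404), Bcl2 (2.99) and Bmf (2.74). Mcl1 did not overlap Bok in dFLEx, nor Bcl2l1 overlap Bcl2, and all other neighbours in that order overlapped between tumors. In KP the neighbours that did not overlap were Bok and Bcl2l1, and Bak1 and Bad. Bcl2 was in place 5 or 6 of the 10 in each dFLEx tumor and in place 10 and 7 in 3800 and 3802.

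Within the anti-apoptotic side, Mcl1 made up 69.5% to 75.3% of the summed CPM per kilobase in dFLEx and 74.0% and 70.1% in 3800 and 3802. Bcl2 made up 6.99%, 6.39% and 11.5% in 170019, 170024 and 170025 and 2.69% and 3.53% in 3800 and 3802. Bcl2l1 made up 15.002%, 14.1% and 11.98% in dFLEx and 19.0% and 23.9% in KP. The anti-apoptotic side was thus mainly Mcl1 in both models, with Bcl2 taking a larger and Bcl2l1 a smaller share in each dFLEx tumor than in either KP tumor.

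The ratio of Bcl2 to Bcl2l1 does not depend on how libraries are scaled. In CPM per kilobase it was 0.466, 0.453 and 0.961 in the dFLEx tumors and 0.141 and 0.147 in the KP tumors, 4.08-fold higher in dFLEx as geometric means (log2 difference 2.03, with SDs of 0.616 over 3 tumors and 0.0442 over 2). No test was made of this or the following ratios, which were chosen with their values in view. Bcl2 has about the double of the exonic bases of Bcl2l1 (9157 and 4586). The trends of the tumors over gene length therefore need not cancel in the ratio of Bcl2 to Bcl2l1, and their part in it was not tested. The ratio of Bcl2 to Bid was 3.46, 2.68 and 3.23 in dFLEx and 0.284 and 0.998 in KP, and that of Bcl2l2 to Bid was 1.36, 2.07 and 1.95 against 0.455 and 0.677. Both lay above 1 in every dFLEx tumor and below 1 in both KP tumors, Bcl2 to Bid in 3802 only just. Where 1 falls depends on the exonic lengths used. Of the 24 pairs of an anti- and a pro-apoptotic member, 6 were higher in every dFLEx tumor and 3 lower, and the rest overlapped. The higher pairs were Bcl2 to Bak1, Bok, Bcl2l11 and Bid, and Bcl2l2 to Bcl2l11 and Bid. The lower were Bcl2l1 to Bak1 and Bmf, and Mcl1 to Bak1. Pairs that share a gene are not independent. No share over pairs of all genes was computed, so these counts are not a result about the family. The ratio of Mcl1 to Bak1, the pair in which MCL1 protein restrains BAK, spanned a narrower range, at 3.02, 2.74 and 3.03 in dFLEx and 3.20 and 3.85 in KP, the KP tumors lying just above.

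**Figure D3:**
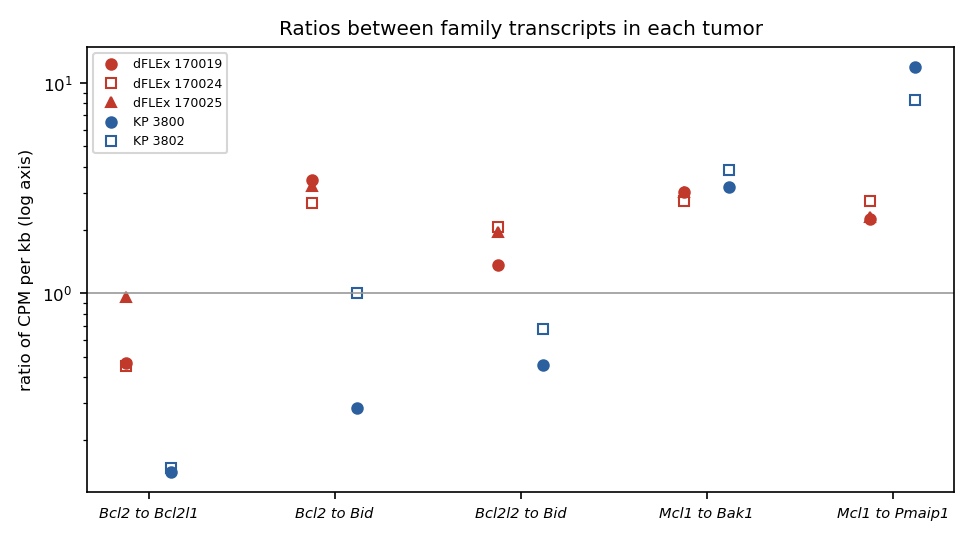
Ratio of CPM per kilobase between pairs of family transcripts in each tumor, on a log axis, with dFLEx in red and KP in blue. The Bcl2 to Bcl2l1 ratio is 0.453 to 0.961 in dFLEx and 0.141 and 0.147 in KP, while Mcl1 to Bak1 stays between 2.74 and 3.85 in all 5 tumors.

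The pro-apoptotic side was led by the effectors in every tumor. Bok and Bak1 summed to 66.5, 49.2 and 40.8 CPM per kilobase in 170019, 170024 and 170025 and to 86.5 and 52.8 in 3800 and 3802, and the 4 BH3-only genes to 32.9, 17.7 and 17.6 and to 27.0 and 19.6. Bok was 32.2% to 47.4% of this side in dFLEx and 53.5% and 51.6% in KP. Bad had the widest range of shares within 1 model, in percentage points, from 8.10% in 170025 to 27.0% in 170019.

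The balance was taken as the log2 ratio of the summed CPM per kilobase of the 4 anti-apoptotic to the 6 pro-apoptotic members. It was -0.36, 0.33 and 0.72 in 170019, 170024 and 170025 and -0.03 and 0.23 in 3800 and 3802. Both KP tumors lay inside the dFLEx range. The means were 0.23 ± 0.543 (SD, n = 3) and 0.10 ± 0.177 (SD, n = 2), a difference of 0.13 that was smaller than either SD. It was -0.11 without 170025. The balance of these 10 transcripts therefore did not separate the models beyond the spread between tumors.

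The sum depends on which family genes are counted. Bax, the other main effector, is not among the 10 and was looked at after its values were seen; it was at 460, 228 and 105 CPM in 170019, 170024 and 170025 and at 39.3 and 136 CPM in 3800 and 3802. Per kilobase it was above Mcl1 in 170019, 170024 and 3802, and its log2 fold change was 1.59 (SE 0.84, edgeR adjusted p = 0.621). It was 0.45 with the GC and length trend removed, 0.85 without 170019 and 2.77 without 3802. With the other anti-apoptotic, effector and BH3-only family genes added, the balance was -2.10, -1.32 and -0.73 in dFLEx and -0.14 and -0.48 in KP, below both KP tumors in every dFLEx tumor, a difference of -1.07. With Bax left out of that sum it was -0.45, -0.04 and 0.03 in dFLEx and 0.11 and 0.46 in KP, again with every dFLEx tumor below. That separation needed the added anti-apoptotic genes, mainly copies of Bcl2a1 whose counts are uncertain: with the other BH3-only genes alone added, the balance was -0.82, -0.26 and -0.03 in dFLEx and -0.20 and -0.17 in KP, and the groups overlapped. With Bax added as well, and still no Bcl2a1, it was -2.46, -1.55 and -0.78 in dFLEx and -0.46 and -1.10 in KP, which also overlapped. Bax has 1576 exonic bases, and its order among tumors within each model was that of short genes.

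**Figure D4:**
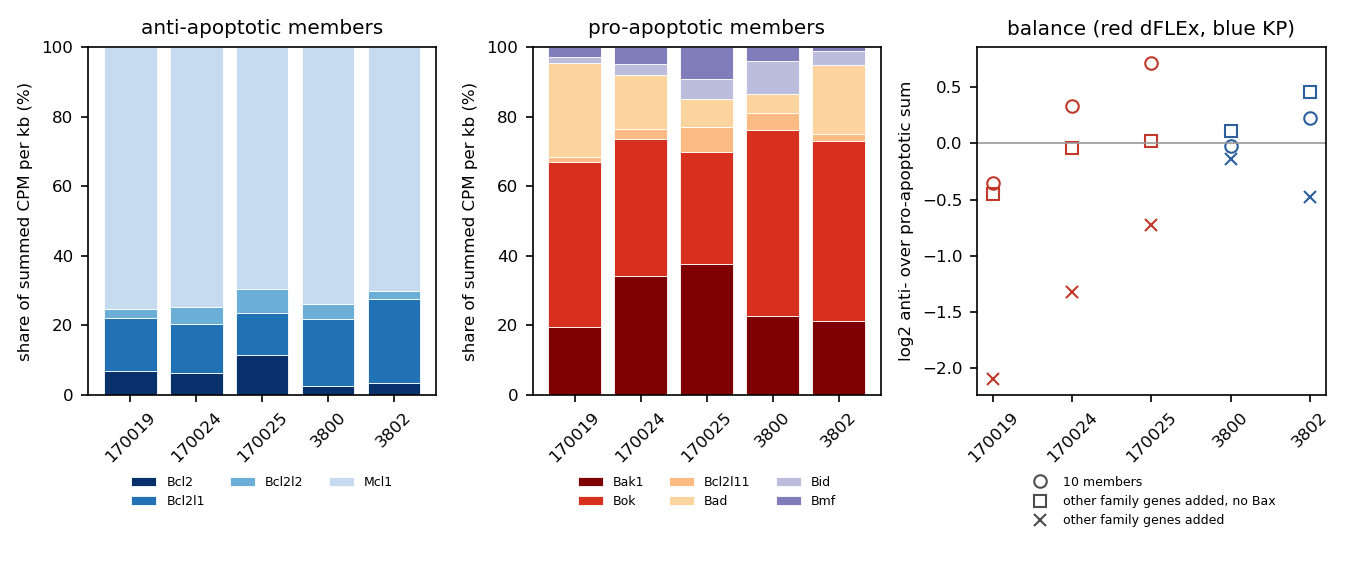
Share of each member in the summed CPM per kilobase of its side (left and centre, stacked bars) and the log2 ratio of the anti- to the pro-apoptotic sum (right) in each tumor, for the 10 members (circles), with other family genes except Bax (squares) and with all of them (crosses). Mcl1 fills 69.5% to 75.3% of the left bars, and the circles of 3800 and 3802 (-0.03 and 0.23) lie within the dFLEx range of -0.36 to 0.72.

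Of the 13 other family genes on a list drawn up for the pathway, 12 were tested and 0 passed in edgeR. At an unadjusted p under 0.05 there were 2, beside 10.6% of all tested genes. Of the 12, 6 had a log2 fold change above 0 (median 0.38 beside -0.18 over all tested genes). The highest was Pmaip1, which encodes NOXA, a BH3-only protein that binds MCL1 and promotes its turnover. It was at 71.0, 62.7 and 79.0 CPM in dFLEx and at 19.0 and 19.5 CPM in KP. Every dFLEx tumor was above both KP tumors, as in 13.7% of all tested genes. The log2 fold change was 1.88 (SE 0.57, edgeR adjusted p = 0.256). The adjusted p was 0.0293 in limma-voom with the tumor as random effect and 0.077 in DESeq2 on tumor sums. The Mcl1 to Pmaip1 ratio in CPM per kilobase was accordingly 2.25, 2.73 and 2.31 in dFLEx and 11.9 and 8.31 in KP.

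The lowest was Bcl2a1d, an anti-apoptotic gene used in blood cells. It was at 2.69, 3.29 and 1.30 CPM in dFLEx and at 11.1 and 13.04 CPM in KP. Both KP tumors were above all dFLEx tumors, as in 11.7% of all tested genes. The log2 fold change was -2.31 (SE 0.65, edgeR adjusted p = 0.226). The adjusted p was 0.0341 in DESeq2 on tumor sums and 0.111 in limma-voom with the tumor as random effect. Bcl2a1d has near-identical copies, and reads with several alignments were not counted. Its counts are therefore uncertain and may be too low. The groups overlapped in the copies Bcl2a1a (8.46, 4.06 and 1.05 CPM against 8.24 and 14.7 CPM) and Bcl2a1b (7.46, 4.39 and 0.542 CPM against 3.71 and 10.04 CPM). In addition, the macrophage markers given above were on the same side; their part was not tested.

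Downstream and upstream of the family, 0 genes passed in edgeR on any list, beside 0.182% of all tested genes (10.6% had an unadjusted p under 0.05). Of the 8 apoptosome and executioner genes, none had an unadjusted p under 0.05 and 6 were above 0 (median 0.33).

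Of the 6 caspase inhibitors and their antagonists, 0 had an unadjusted p under 0.05 and 2 were above 0 (median -0.16), from Birc3 (-0.90) to Birc2 (0.60), which encode the cellular IAP proteins; without 3800 these were -0.19 and 1.28. Of the 7 genes of the death receptor arm that acts through Bid, 0 had an unadjusted p under 0.05 and 5 were above 0 (median 0.35), from Cflar (-0.82), the caspase-8 inhibitor FLIP, to Fadd (0.79), the adaptor of the receptors; without 3800 these were 0.79 and 1.38. Of the 18 partner and turnover genes, 0 had an unadjusted p under 0.05 and 8 were above 0 (median -0.10), from Huwe1 (-1.12), a ubiquitin ligase of MCL1, to Vdac1 (1.21), a channel of the outer mitochondrial membrane. Huwe1, with 23507 exonic bases, was at 17.4, 39.7 and 233 CPM in dFLEx and at 404 and 16.4 CPM in KP. Like long genes in general, it was highest in 170025 and 3800, and without 3800 its log2 fold change was 2.74.

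Muscle and stroma also differed between the tumors. The 8 myocyte markers summed to 8926 to 36086 CPM in dFLEx and to 1234 and 4588 CPM in KP, and the 5 pericyte markers to 546 to 978 CPM against 371 and 60.7 CPM. The 6 fibroblast markers (666 to 800 CPM against 202 and 746 CPM) and the 5 erythroid markers (377 to 1118 CPM against 70.2 and 1792 CPM) did not fall on one side, nor did neutrophil markers (7.16 to 51.9 CPM against 6.97 and 41.2 CPM). Markers of T cells (6.79 to 9.17 CPM against 11.03 and 48.6 CPM) were lower in dFLEx, and those of B cells were at 3.24 to 5.93 CPM against 2.22 and 34.7 CPM. Only the neutrophil marker Ly6g was at 0, in 170025. The part of muscle, stroma and blood cells in the member levels was not tested.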

How the data were processed

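Ribosomal RNA-depleted libraries were sequenced from 5 sarcomas. Per the labels and the study's methods, the authors trimmed reads with Trimmomatic (0.39), aligned them with STAR (2.7.10a) to GRCm39 with the transgene added, and deposited whole-number counts per gene from featureCounts (Subread 2.0.3), with no normalization. Strand was ignored, mates of a pair were counted apart, and reads with several alignments or genes were not counted. R2 of 3802 was not analysed here; 0 sample columns were unused.

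Symbols were joined from GENCODE M39 (56017 of 56750 features). Counts were summed by tumor, filtered with filterByExpr, scaled by TMM and compared with edgeR (4.0.16) glmQLFit and glmQLFTest, taking p adjusted by Benjamini-Hochberg across every tested gene, with 0.05 as the threshold. Standard errors are the absolute log2 fold change over the square root of F. Nothing in the labels says that the tumors came from separate mice, so p-values measure the spread between these tumors. Members and lists were chosen with earlier results of these data known. Named genes are all members and, of each other list, those passing and the largest and smallest log2 fold change (not for the apoptosome and executioner list, where these are not reported here); Bax was added after its values were seen. Alternatives were 9 libraries as samples (edgeR, DESeq2 1.42.0, limma-voom 3.58.1, duplicate number as block), 1 library per tumor, DESeq2 on sums, other scalings and filters, robust dispersion, counts divided by 2, background from receptor genes subtracted, each tumor left out and, added after seeing the data, loess removal (span 0.3) of GC and length trends fitted on 15264 genes whose mean reached 1 CPM. Correlations need 6 samples and were not computed.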

Additional observations from a re-analysis of the deposited data

How the results depend on the processing

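In edgeR on tumor sums, 45 genes passed an adjusted p of 0.05 (25 higher in dFLEx). The number was 3344 with libraries as independent samples, 2476 with the duplicate number as a replicate block on those libraries, 4828 with DESeq2 on libraries, 1396 with DESeq2 on tumor sums, 543 with limma-voom, 880 with no filter, 80 where genes had to average 1 CPM, 11 with a robust dispersion and 200 with the GC and length trend removed; with 1 tumor left out it ran from 0 (without 170019 or 170024, where 1939 and 1414 genes had an unadjusted p under 0.05) through 8 (without 3800) and 9 (without 170025) to 414 (without 3802). Why these counts differ was not tested. Library totals called 34 genes (14 higher), the upper quartile 50 (17 higher).

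The number of members called was 0, and it was 3 with libraries as independent samples in edgeR and in DESeq2, 2 with the replicate block, and 0 under all other alternatives, those without a tumor included (0 to 0). The share of all 19538 tested genes called by edgeR was 17.1% when each library was its own sample and 12.7% with the block. For DESeq2 on libraries no such share is given, so its 3 members cannot be set against all genes. No paired analysis of tumors was possible because the tumors carry no number shared between the groups. R1 and R2 name duplicates of a tumor.

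Of 200 member values under 20 alternatives, 176 kept their sign and side of the threshold, 8 passed it and 16 changed sign. Bak1 (0.06) was -0.055 with libraries as samples in edgeR, -0.053 with the block, -0.079 in DESeq2 on libraries, -0.00435 with DESeq2 size factors, -0.21 with library totals, -0.032 with the upper quartile, -0.037 where genes had to average 1 CPM, -0.53 with the trend removed and -0.25 without 3802. Bad was -0.064 with the trend removed. With 1 tumor left out, log2 fold changes that crossed 0 ran from -0.50 (without 170019) to 1.19 (without 3802) for Bad, from -0.13 (without 3802; -0.12 without 170025) to 1.27 (without 3800) for Bcl2l2, from -0.25 (without 3802) to 0.64 (without 3800) for Bak1, and from -2.87 (without 170025) to 2.74 (without 3800) for Huwe1. Between leaving out 3802 and leaving out 3800 they ran from -0.25 to 2.41 for Bmf, -0.38 to 0.24 for Mcl1, -1.11 to 0.88 for Bcl2l11 and -1.51 to 0.79 for Cflar. The difference in balance (0.13) was -1.07 with other family genes added, -0.44 with these except Bax, -0.82 with the other effector and BH3-only genes alone added (-0.18 with these except Bax; the last 3 sums were chosen after seeing the data) and -0.11 to 0.42 with 1 tumor left out (0.01 without 3800, 0.26 without 3802). With 5 tumors, 1 of them from a single library, and tumor-specific trends over gene length, none of the member differences was resolved, with 95% intervals of 1.18 to 1.93 to each side.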
